A study of Mus musculus with 3 samples.

Results

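The nutrient solute carriers described here are the membrane proteins that move sugars, amino acids, peptides and monocarboxylates into and out of cells, measured as transcripts of the mouse distal colon. Members were taken by name: gene symbols of the families Slc1, Slc2, Slc3, Slc5, Slc6, Slc7, Slc15, Slc16, Slc36, Slc38 and Slc43. This choice was made with earlier results of these data known. The rule took 109 of the 24346 gene symbols listed. Of these, 105 name carriers or their heavy chains, and 4 are other transcripts whose names begin alike (Slc7a6os, Slc2a4rg-ps, Slc36a1os and Slc6a19os).

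The samples are labelled as 3 libraries of polyadenylated RNA from distal colon of wild-type mice labelled JAX, at steady state. The series text gives an age of 8 weeks. They form 1 group, so no condition is compared, and the comparisons are between carriers, between carrier classes and with all genes. Values are FPKM, fragments scaled to the length of the transcript and to the depth of the file, which can be compared between genes.

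The names of the 3 deposited tables share a library name, an index and a lane and differ in a running number, and nothing in the labels says that the replicates came from separate animals. Depth, worked back from the confidence bounds, came to 3.73e+06, 3.74e+06 and 1.24e+06 mapped fragments in replicates 1, 2 and 3. For the 8771 genes that had 1 isoform and averaged 1 FPKM or more, the median variance between files was 0.674 of the sampling variance, and 13 genes (0.148%) differed between files at an adjusted p under 0.05 (chi-square test, Benjamini-Hochberg). None of the 42 members tested did, and none reached an unadjusted p under 0.05, which 434 of all genes tested (4.95%) did. Apart from those 13 genes, no difference between files beyond sampling noise was called, and the files were counted as 1 sample. Each ± is the SD of the 3 files, a measurement error that holds no spread between animals. It rests on 3 values and can be less than the counting error where fragments are few. The colon itself was evident in its markers: each of 5 colonocyte markers passed 1 FPKM in all files, with summed levels of 1988 to 2033 FPKM.

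Carriers of the intestine work in series. Apical carriers such as SGLT1 or PEPT1 draw on the sodium or proton gradient to bring a nutrient in from the lumen, and basolateral carriers let it out towards the blood. The colon receives few free sugars and amino acids. It is known instead for taking up short-chain fatty acids made by bacteria, which colonocytes burn. Several amino acid carriers are dimers of a catalytic light chain (Slc7) and a heavy chain (Slc3) that brings it to the membrane.

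As a family the carriers were not unusually abundant. Of the 109 members, 51 stood at 1 FPKM or more in every file, or 46.8%, against 48.5% of all genes. Their median was 1.22 ± 0.146 FPKM, against 1.25 ± 0.0232 FPKM over all genes. Both medians include genes listed at 0 in every file, which were 18 of the 109 members and 29.9% of all genes. The closeness of the medians thus depends on the genes at 0. A mean of 10 FPKM or more was reached by 18 members, all of them carriers, against a background of 23.3% of genes. At the other end, 17 carriers were listed at 0 in every file (29.9% of all genes were), with limits of 0.106 to 0.251 FPKM, the level that a total of 3 fragments would give. These limits, like the intervals given here, cover counting error only.

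The carriers' transcripts were concentrated in a few genes. The 5 highest (Slc6a14, Slc16a1, Slc6a8, Slc5a8 and Slc15a1) held 52.1% of the summed FPKM of the 105 carriers, and the 10 highest held 73.4%. The summed level of all members was 1006, 1007 and 986 FPKM in replicates 1, 2 and 3. Amino acid carriers made up 40.5% ± 0.510 of it, monocarboxylate carriers 22.3% ± 0.594, sugar carriers 13.0% ± 0.251, carriers of neurotransmitters and osmolytes 11.7% ± 0.267, and peptide carriers 9.62% ± 0.372.

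**Figure D1:**
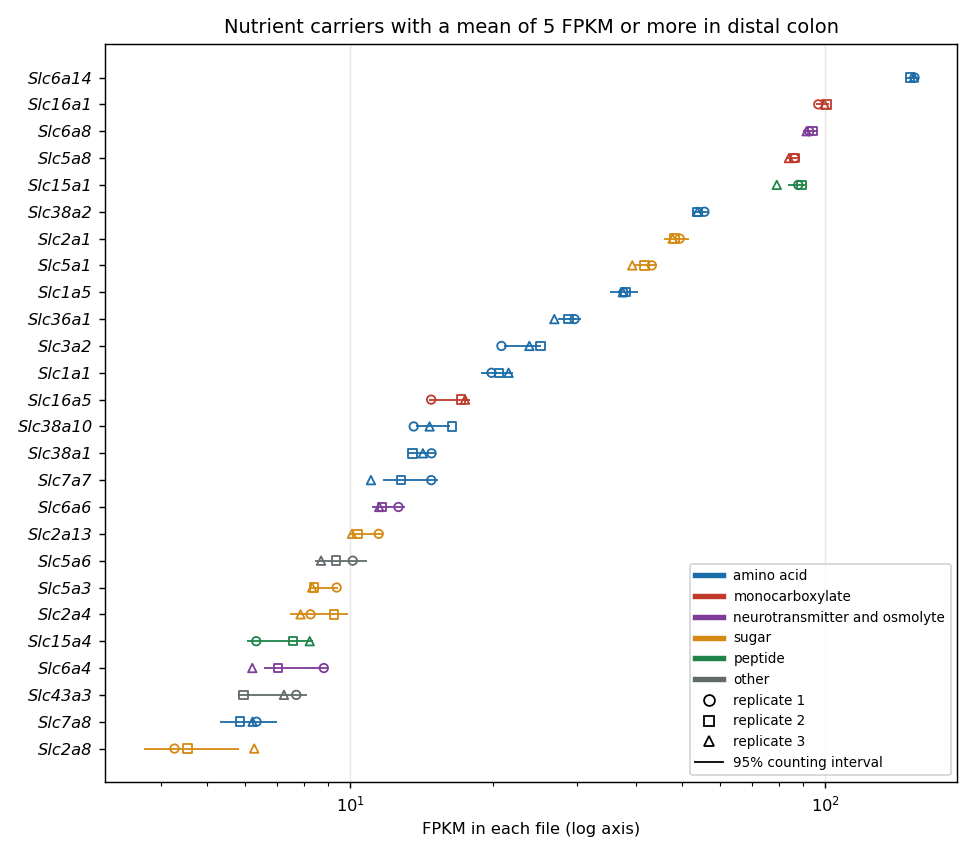
FPKM on a log axis for each carrier with a mean of 5 FPKM or more, with 1 symbol per file and a line for the 95% counting interval of the depth-weighted level. Slc6a14 lies apart from all others at 151 to 154 FPKM, and the next 4 carriers lie between 79.1 and 101 FPKM.

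The highest carrier was Slc6a14 (ATB0,+), which uses sodium and chloride gradients to take up neutral and cationic amino acids (GRCm38, chrX:21714900-21742357). It stood at 154, 151 and 154 FPKM in replicates 1, 2 and 3, a mean of 153 ± 1.78 FPKM and place 394 among all genes. Its level lay above every other carrier in every file. The monocarboxylate carrier MCT1, Slc16a1 (chr3:104638664-104658462), which moves butyrate, lactate and pyruvate together with a proton, stood at 96.7, 101 and 99.7 FPKM. SMCT1, Slc5a8 (chr10:88885992-88929515), moves the same acids together with sodium and stood at 86.2, 86.2 and 83.9 FPKM. Slc16a1 was the higher of these routes in every file, by 1.16-fold ± 0.0341, and the counting intervals of their levels (95.6 to 102 and 83.1 to 88.6 FPKM) did not overlap. Slc5a6, the sodium-coupled carrier of biotin and pantothenate, both of which colonic bacteria make, stood lower, at 9.39 ± 0.721 FPKM. These 4 genes, taken as the carriers best known from the colon, all stood at 1 FPKM or more in every file (48.5% of all genes did). Their median was 92.2 ± 1.03 FPKM. The class was drawn up with earlier results of these data known, so its high level is not an independent result.

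Basigin, Bsg, the membrane chaperone that MCT1 needs to reach the surface, stood at 332, 342 and 308 FPKM, which was 3.31-fold ± 0.191 the level of Slc16a1. Embigin, Emb, its relative, stood at 1.29 ± 0.594 FPKM. The other members of the Slc16 family were much lower. Slc16a5 (MCT6) came next at 16.5 ± 1.44 FPKM. MCT4, Slc16a3, the lactate exporter of glycolytic cells, stood at 2.97, 3.81 and 5.79 FPKM. Slc16a12, a creatine carrier, stood at 3.32 ± 0.962 FPKM and Slc16a9, a carnitine carrier, at 2.94 ± 0.739 FPKM. SMCT2, Slc5a12, the sodium-coupled lactate carrier of the kidney, stood at 0.0722 ± 0.0831 FPKM.

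Carriers of the small intestinal brush border ranged from 85.3 FPKM down to 0. Of 10 such carriers, 5 stood at 1 FPKM or more in every file, a share close to the 48.5% of all genes. The other 5 stayed under 1 FPKM in every file, as did 10966 of all 24346 genes. The median of the 10 was 1.46 ± 0.172 FPKM. PEPT1, Slc15a1 (chr14:121459621-121505254), the proton-coupled carrier of di- and tripeptides, stood at 87.7, 89.1 and 79.1 FPKM. It was above Slc5a8 in 2 files and below it in 1, and their intervals overlapped, so the order of this pair is not resolved. SGLT1, Slc5a1 (chr5:33104219-33162699), the sodium-glucose cotransporter, stood at 43.1, 41.6 and 39.3 FPKM. EAAC1, Slc1a1, the glutamate and aspartate carrier, stood at 20.7 ± 0.855 FPKM.

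The other brush border carriers had means under 3 FPKM. The imino acid carrier Slc6a20a stood at 2.43 ± 0.558 FPKM and Slc7a9, the light chain of the cystine carrier, at 2.42 ± 0.308 FPKM. B0AT1, Slc6a19, the main neutral amino acid carrier of the small intestine, stood at 0.465, 0.349 and 0 FPKM. The fructose carrier GLUT5, Slc2a5, stood at 0.541, 0.721 and 0.274 FPKM, and GLUT2, Slc2a2, at 0.110, 0 and 0 FPKM. Slc2a7 was listed at 0 (limit 0.251 FPKM). In these tables the neutral amino acid carrier Slc6a14 was thus high where Slc6a19 was near 0. Summed over their class, the 4 colonic carriers were 2.26-fold ± 0.0907 as high as the 10 brush border carriers. This fold depends on how the classes were drawn up, which was done with earlier results of these data known. The SD does not cover that choice.

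Brush border hydrolases, the enzymes that cut nutrients for these carriers, also ranged widely: 6 of 11 stood at 1 FPKM or more in every file, a share close to the 48.5% of all genes. The meprin subunits Mep1a (82.4 ± 1.32 FPKM) and Mep1b (27.6 ± 3.36 FPKM), the maltase-glucoamylase Mgam (24.6 ± 2.21 FPKM), the peptidases Dpp4 (9.74 ± 0.260 FPKM), Anpep (8.02 ± 1.07 FPKM) and Enpep (3.72 ± 0.229 FPKM) were those. Sucrase-isomaltase, Sis, stood at 1.16, 1.02 and 0.562 FPKM, the peptidase Naalad2 at 0.804 ± 0.433 FPKM, the phosphatase Alpi at 0.285 ± 0.0731 FPKM, trehalase, Treh, at 0.198 ± 0.171 FPKM and lactase, Lct, at 0.0440 ± 0.0441 FPKM. Naalad2 is counted among the 11, but these data do not show that it belongs to the brush border. Tmem27, a partner of Slc6a19 known from the kidney, was listed at 0 (limit 0.325 FPKM). Of 7 enterocyte markers of the small intestine, 3 stood at 1 FPKM or more in every file, with a summed level of 134 to 151 FPKM, nearly all of it Fabp6 and Fabp2. Lct and Alpi were near 0 and Gata4 was listed at 0. The part of small intestinal cells in the levels of Slc15a1 and Slc5a1 was not tested.

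**Figure D2:**
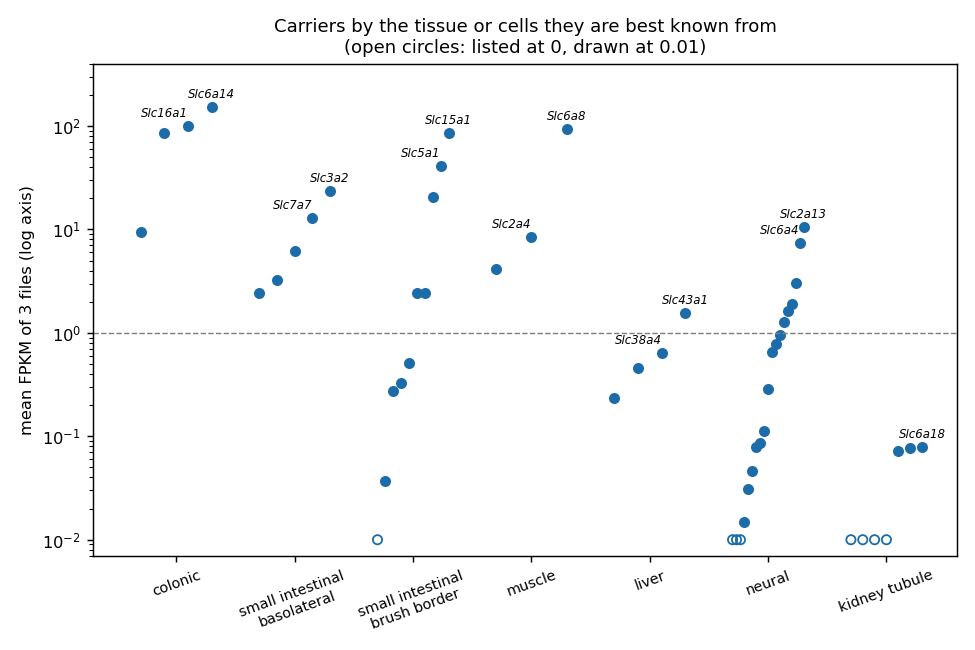
Mean FPKM of the 3 files on a log axis for carriers grouped by the tissue or cells they are best known from, with 1 point per carrier and the 1 FPKM line dashed. The 4 colonic carriers lie at 9.39 FPKM or more, the 10 brush border carriers run down to 0, and the 7 kidney tubule carriers all lie under 0.1 FPKM.

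The letters just before the start of the transcript show how unlike the genes of the leading carriers are. The windows below are the 250 bases upstream of the RefSeq start (GRCm38.p6), 5′ to 3′ on the gene's strand, for the 3 highest colonic and the 2 highest brush border carriers, with each CG dinucleotide in capitals. They lie at chrX:21714650-21714899 (plus strand), chr3:104638414-104638663 (plus), chr10:88885742-88885991 (plus), chr5:33103969-33104218 (plus) and chr14:121505255-121505504 (minus).
Slc6a14: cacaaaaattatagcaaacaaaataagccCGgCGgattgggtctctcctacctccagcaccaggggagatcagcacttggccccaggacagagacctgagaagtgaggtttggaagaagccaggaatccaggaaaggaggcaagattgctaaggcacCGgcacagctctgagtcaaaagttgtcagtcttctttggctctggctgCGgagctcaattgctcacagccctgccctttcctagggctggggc
Slc16a1: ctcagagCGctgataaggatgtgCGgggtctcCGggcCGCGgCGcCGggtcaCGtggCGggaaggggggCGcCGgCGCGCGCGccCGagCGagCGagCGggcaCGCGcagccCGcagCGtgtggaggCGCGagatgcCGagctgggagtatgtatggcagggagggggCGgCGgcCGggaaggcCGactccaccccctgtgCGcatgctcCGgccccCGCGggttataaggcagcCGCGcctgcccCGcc
Slc5a8: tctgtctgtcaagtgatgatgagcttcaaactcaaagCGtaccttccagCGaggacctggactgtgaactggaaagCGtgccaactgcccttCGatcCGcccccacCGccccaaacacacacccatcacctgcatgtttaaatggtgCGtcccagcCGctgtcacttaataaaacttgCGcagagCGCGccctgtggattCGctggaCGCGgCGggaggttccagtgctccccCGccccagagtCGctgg
Slc5a1: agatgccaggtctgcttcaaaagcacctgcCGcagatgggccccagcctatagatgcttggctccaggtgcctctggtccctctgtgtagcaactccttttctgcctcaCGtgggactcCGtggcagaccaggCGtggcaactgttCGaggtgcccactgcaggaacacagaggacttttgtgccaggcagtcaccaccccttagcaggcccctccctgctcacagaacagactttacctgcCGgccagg
Slc15a1: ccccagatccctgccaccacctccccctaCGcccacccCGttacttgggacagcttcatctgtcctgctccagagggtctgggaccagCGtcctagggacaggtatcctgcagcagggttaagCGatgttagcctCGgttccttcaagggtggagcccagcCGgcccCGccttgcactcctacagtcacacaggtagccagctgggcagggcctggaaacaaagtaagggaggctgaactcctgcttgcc

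The window of Slc16a1 holds 37 CG dinucleotides, that of Slc5a8 17, that of Slc15a1 7, that of Slc5a1 6 and that of Slc6a14 4. A dense window is usual in widely expressed genes. The 2 highest carriers thus have the fewest and the most among the 13 windows of carriers at 10 FPKM or more. A window was found for 76 carriers, and 71 of these windows ended within 100 bases of the start of the leading isoform in the files. Slc6a8 and Slc1a5 were among the carriers without one. Of the 18 carriers at a mean of 10 FPKM or more, 13 had a window, with a median of 12 CG dinucleotides. Of the 38 from 1 to 10 FPKM, 29 had a window, with a median of 16. The 34 windows of carriers under 1 FPKM had a median of 4.5. Over all 32841 windows listed the median was 6. The neural glutamate carrier Slc1a6, with 26 in its window, stood at 0, 0.137 and 0 FPKM. Density and level thus did not go together in every gene, and this is a description across genes, which are not replicates.

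**Figure D3:**
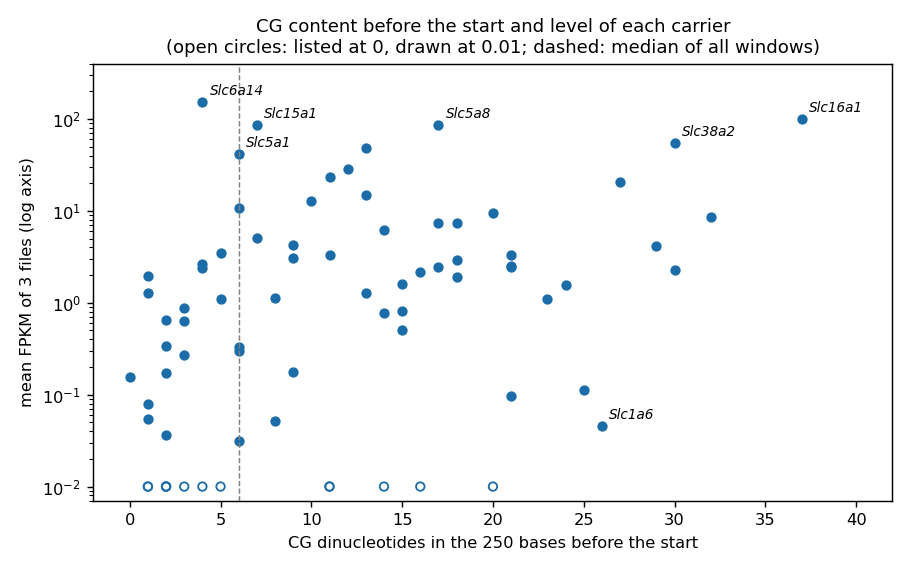
Mean FPKM of each carrier with a window, on a log axis, against the number of CG dinucleotides in the 250 bases before its start. There is 1 point per carrier, and the median of all windows (6) is dashed. Slc6a14 lies at 4 and Slc16a1 at 37 CG dinucleotides, and carriers listed at 0 occur from 1 to 20.

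Both strands of the windows were searched for 3 motifs of 6 letters. The E-box CACGTG, which holds a CG itself and reads alike on both strands, occurred in 11 of the 76 windows, or 14.5%, against 6.02% of all windows. These sets are unlike. Each carrier has 1 window, while the 32841 windows cover 27018 symbols. The carriers' windows also held more CG dinucleotides (median 10.5 against 6), which was not allowed for. The E-box begins 200 bases before the start of Slc16a1, 143 before that of Slc5a1 and 31 before that of Slc36a1. The TATA box letters TATAAA occurred in 8 windows, or 10.5%, against 12.4% of all windows. None of the 13 windows of carriers at 10 FPKM or more held them. GTTAAT, part of the site of the intestinal factor HNF1, occurred in 5, or 6.58%, against 6.43%. Among the 13 windows of carriers at 10 FPKM or more, that of Slc36a1 alone held it. A match of letters is not a site in use.

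Sugar carriers were led by the widely expressed GLUT1. Of 20 sugar and inositol carriers, 7 stood at 1 FPKM or more in every file, or 35%, against 48.5% of all genes. Another 7 were listed at 0 (29.9% of all genes were). Slc2a1 (chr4:119108745-119137329) stood at 49.4, 48.2 and 47.7 FPKM, and was 1.17-fold ± 0.0381 as high as the apical Slc5a1 with intervals that did not overlap. It alone was 1.62-fold ± 0.0408 the sum of the other 11 genes of its family. HMIT, Slc2a13, a proton-coupled myo-inositol carrier best known from the brain, stood at 11.5, 10.4 and 10.1 FPKM, and SMIT1, Slc5a3, the sodium-coupled inositol carrier that cells use to balance their osmolarity, at 8.69 ± 0.586 FPKM. GLUT4, Slc2a4, the insulin-responsive carrier of muscle and fat, stood at 8.26, 9.25 and 7.86 FPKM. The intracellular hexose carrier Slc2a8 stood at 5.03 ± 1.09 FPKM and the urate carrier Slc2a9 at 1.95 ± 0.146 FPKM. GLUT3, Slc2a3, stood at 1.11, 1.32 and 0.424 FPKM. The kidney glucose carriers Slc5a2 and Slc5a10, the mouse SGLT3 copies Slc5a4a and Slc5a4b, the inositol carrier Slc5a11 and the lysosomal Slc2a6 were, with Slc2a7, the genes listed at 0.

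Peptide carriers were almost wholly PEPT1, which held 88.7% of the group's summed level. Slc15a1 was 32.3-fold ± 4.63 as high as PEPT2, Slc15a2 (2.67 ± 0.430 FPKM), the high-affinity carrier known from kidney and brain. The lysosomal carriers of histidine and peptides, Slc15a4 and Slc15a3, stood at 7.39 ± 0.955 and 0.853 ± 0.424 FPKM. Slc15a5 was listed at 0 (limit 0.153 FPKM).

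Among amino acid carriers, 23 of 48 stood at 1 FPKM or more in every file, a share close to the 48.5% of all genes. A mean of 10 FPKM or more was reached by 9 (23.3% of all genes did). After Slc6a14 came SNAT2, Slc38a2, the sodium-coupled carrier of small neutral amino acids, at 55.7, 53.8 and 53.9 FPKM. ASCT2, Slc1a5, the glutamine exchanger of dividing cells, stood at 37.6, 38 and 37.5 FPKM, which was 17.7-fold ± 1.36 the level of its relative ASCT1, Slc1a4. PAT1, Slc36a1, which moves glycine, alanine and proline together with a proton, stood at 29.7, 28.8 and 26.9 FPKM. The heavy chain Slc3a2 and the glutamate carrier Slc1a1 came next. Below them, Slc38a10 stood at 14.9 ± 1.40 FPKM and the glutamine carrier Slc38a1 at 14.2 ± 0.652 FPKM. From Slc16a5 downwards to Slc5a3, the interval of each carrier overlapped that of the next one in the order, while carriers farther apart, such as Slc16a5 and Slc6a6, had intervals that did not overlap.

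Heavy and light chains were compared after their levels had been seen. The heavy chain 4F2hc, Slc3a2, stood at 20.8, 25.2 and 23.8 FPKM. The 6 light chains that pair with it (Slc7a5, Slc7a6, Slc7a7, Slc7a8, Slc7a10 and Slc7a11) summed to 26.6, 23.0 and 21.8 FPKM, so that the heavy chain was 0.990-fold ± 0.181 their sum, below it in replicate 1 and above it in the other files. The largest light chain was the basolateral y+LAT1, Slc7a7, at 14.8, 12.8 and 11.1 FPKM, followed by LAT2, Slc7a8, at 6.15 ± 0.251 FPKM. Slc7a6 stood at 2.28 ± 0.520 FPKM, LAT1, Slc7a5, at 2.14 ± 0.404 FPKM and the cystine-glutamate chain xCT, Slc7a11, at 0.338 ± 0.209 FPKM. Slc7a10 was listed at 0 (limit 0.197 FPKM). The other heavy chain, rBAT or Slc3a1, stood at 0.247, 0.370 and 0.375 FPKM, and was 0.136-fold ± 0.0138 its light chain Slc7a9. Slc3a1 rests on 5.82 fragments over the 3 files (counting interval 0.115 to 0.700 FPKM) and Slc7a9 on 30.8 (1.60 to 3.36 FPKM). The SD of this ratio therefore understates its counting error.

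**Figure D4:**
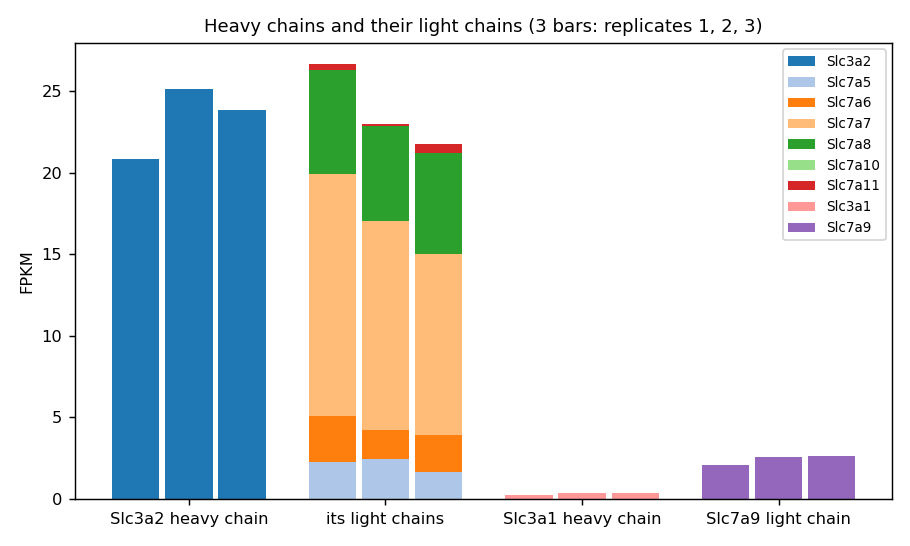
FPKM of the heavy chains and of the light chains known to pair with them, with 1 bar for each of replicates 1, 2 and 3 and light chains stacked. Slc3a2 (20.8 to 25.2 FPKM) and its summed light chains (21.8 to 26.6 FPKM) are of like height, while Slc3a1 lies far under Slc7a9.

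GLUT2, Slc2a2 (0.110, 0 and 0 FPKM), is also known as a basolateral carrier but was counted above with the brush border. The 5 other carriers classed as basolateral in the small intestine all reached 1 FPKM in all 3 files (48.5% of all genes did). Their median was 6.15 ± 0.251 FPKM. They are Slc3a2, Slc7a7 and Slc7a8, the aromatic amino acid carrier Slc16a10 (3.28 ± 0.799 FPKM) and the branched-chain and aromatic amino acid carrier LAT4, Slc43a2 (2.42 ± 0.492 FPKM). These are also used by other cells. Their level in bulk tissue does not say which cells hold them, and fewer cells of a type and less RNA per cell cannot be told apart in these data.

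The creatine carrier Slc6a8 (chrX:73673133-73682500), best known from muscle and brain, stood at 92.5, 93.9 and 91.4 FPKM, above Slc5a8 in every file. Together with Slc2a4 and Slc16a3 it formed the muscle class, of which all 3 stood at 1 FPKM or more in every file (48.5% of all genes did). All 5 smooth muscle markers did so too, with summed levels of 2381 to 2484 FPKM. Of 5 skeletal muscle markers, Ckm and Acta1 passed 1 FPKM in every file and Myh1 and Myh4 were listed at 0 (summed levels of 11.3 to 17.9 FPKM). None of 4 adipocyte markers did (0.172 to 0.752 FPKM), and Lep was listed at 0. The part of muscle in these levels was not tested. The taurine carrier Slc6a6 stood at 11.9 ± 0.612 FPKM.

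Neural carriers were mostly low, with a median of 0.289 ± 0.121 FPKM. Of 19, 6 stood at 1 FPKM or more in every file, or 31.6%, against 48.5% of all genes. Another 12 stayed under 1 FPKM in every file, as did 10966 of all 24346 genes. The 6 were Slc2a13, the serotonin carrier Slc6a4 (8.80, 7.06 and 6.22 FPKM), the glycine carrier Slc6a9 (3.83, 3.83 and 1.55 FPKM), the synaptic vesicle carrier Slc6a17 (1.92 ± 0.305 FPKM), Slc7a14 (1.62 ± 0.120 FPKM) and the choline carrier of cholinergic neurons, Slc5a7 (1.27 ± 0.264 FPKM). SERT is also made by gut epithelium, where it ends serotonin signals. The glial glutamate carriers Slc1a3 and Slc1a2 stood at 0.656 ± 0.223 and 0.0794 ± 0.00459 FPKM. The counting interval of Slc1a2, from 7.61 fragments, was wider than its SD, at 0.0340 to 0.162 FPKM. The dopamine carrier Slc6a3, the glycine carrier Slc6a5 and Slc7a10 were listed at 0 (limits 0.106, 0.152 and 0.197 FPKM). Of the markers, 7 of 8 for enteric neurons (summed 71.4 to 73.4 FPKM) and 3 of 4 for enteric glia (9.64 to 11.3 FPKM) stood at 1 FPKM or more in every file. Their part in the neural carriers was not tested.

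All 7 kidney tubule carriers stayed under 1 FPKM in every file, as did 10966 of all 24346 genes. The highest of the 7 were Slc6a18 (0.0796 ± 0.0710 FPKM), Slc36a2 (0.0777 ± 0.0891 FPKM) and Slc5a12, and Slc5a2, Slc5a10, Slc7a12 and Slc7a13 were listed at 0 (limits 0.168, 0.167, 0.226 and 0.178 FPKM). Of 5 kidney markers, 4 were listed at 0 and none reached 1 FPKM. Of 4 carriers best known from liver, Slc43a1 alone passed 1 FPKM in every file, at 1.00, 1.51 and 2.12 FPKM. Slc38a4 stood at 0.635 ± 0.310 FPKM, Slc7a2 at 0.457 ± 0.0918 FPKM and Slc38a3 at 0.232 ± 0.201 FPKM. All 4 liver markers, secreted proteins among them, stood above 1 FPKM in every file, with summed levels of 251 to 274 FPKM, and their part was not tested. The means nearest to 1 FPKM from either side were those of the lysosomal carrier Slc36a4 (1.10 ± 0.436 FPKM) and of Slc2a3 (0.954 ± 0.471 FPKM).

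Most pairs of related carriers that lie close together fell on the same side of 1 FPKM, and some differed widely in level. Among the carriers, 12 pairs lie within 100000 bases of each other with no other carrier between. Genes of other kinds may lie between them. The pairs hold 22 genes, some of them in more than 1 pair. In 7 pairs both genes had a mean under 1 FPKM, in 2 both reached it, and in 3 only 1 of them did. Over all 105 carriers, 56 reached it. On chromosome 11, Slc36a1 (28.5 ± 1.42 FPKM) lies 19262 bases from Slc36a2 and beyond it from the orphan Slc36a3, which was listed at 0. On chromosome 9, Slc6a20a lies 4341 bases from its copy Slc6a20b (0.156 ± 0.0483 FPKM). On chromosome 15, Slc38a1 and Slc38a2, 44478 bases apart, were both high.

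Of the 109 members, 83 had 1 isoform in the tables and 26 had several. None of the 6 with several isoforms and a mean of 5 FPKM or more had 2 isoforms of 20% or more in every file, against 15.5% of all such genes. Slc6a8 was given wholly to an isoform of 3964 bases in every file, with 3955 and 3979 bases in the others. In Slc3a2 the shorter isoform, of 2572 bases, held 97.2%, 92.1% and 90.4%. Among the 16 members with several isoforms that stood at 1 FPKM or more in every file, the leading isoform was not the same in every file for 5, against 37.1% of all such genes. These were Slc16a3, Slc7a1, Slc2a9, Slc6a17 and Slc43a1, all under a mean of 5 FPKM. In Slc16a3, an isoform of 2481 bases held 99.98% in replicate 1, and an isoform of 2386 bases held 99.98% and 99.97% in replicates 2 and 3. In Slc7a1, an isoform of 7063 bases held 99.96% and 99.90% in replicates 1 and 3, and an isoform of 7179 bases held 99.97% in replicate 2. The sum per gene is therefore the value used here, and isoform shares of these genes are not read further.

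**Figure D5:**
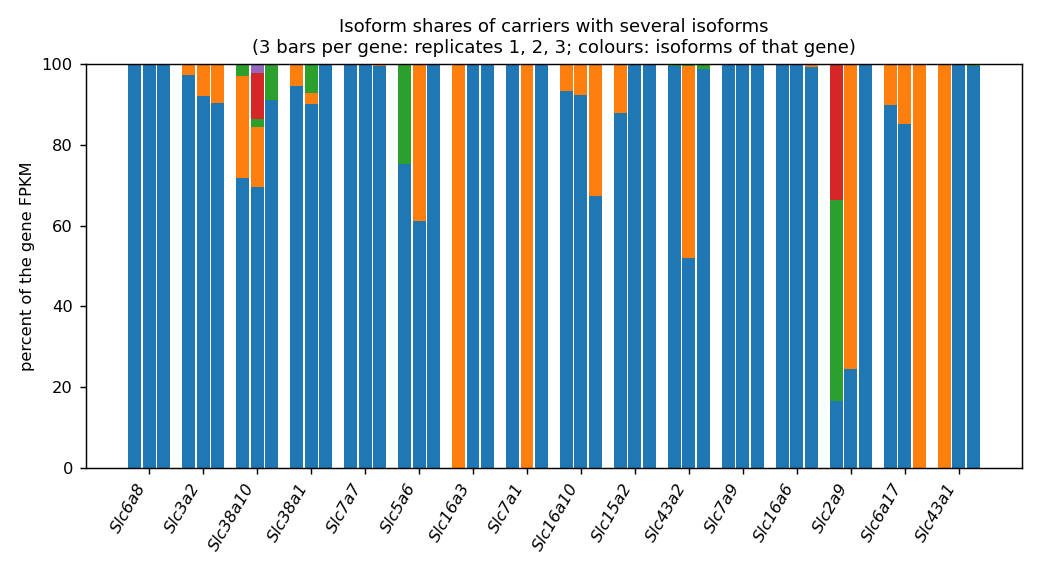
Percent of the gene's FPKM in each isoform, with 3 bars per gene for replicates 1, 2 and 3, for the 16 members with several isoforms and 1 FPKM or more in every file, ordered by level. Colours mark isoforms within a gene, and the leading colour changes between files in 5 genes.

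Some levels are uncertain because part of the transcript is shared. A run of 100 bases or more with 97% identity or better matched a transcript of another gene in 34 of the 109 members, overlapping genes included. Of the 18 members at 10 FPKM or more, 7 had a match: 98.9% of a Slc1a1 transcript (with 4430402I18Rik), 16.9% of a short one of Slc6a6, 10.9% in Slc7a7 (with Oxa1l), 8.10% in Slc38a10, 6.15% in Slc3a2, 5.14% in Slc16a5 and 3.31% in Slc2a1. In Slc5a6 it was 58.4%, with Gm6157, in Slc3a1 26.5%, with Prepl, in Slc6a9 36.2%, with Ccdc24, in Slc43a2 58.1% of a short transcript and in Slc7a2 91.5% of a short one. No match was found for Slc6a14, Slc16a1, Slc6a8, Slc5a8, Slc15a1, Slc38a2, Slc5a1, Slc1a5 or Slc36a1.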

How the data were processed

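Each deposited file is an isoform table whose FPKM and 95% confidence bounds the authors made with Cufflinks, per the file headers. A coverage signal per isoform, deposited by the authors, was not used. The submitters' processing notes name TopHat2 2.1.1, Bowtie2 2.3.4.3, Cufflinks 2.2.1 and the build GRCm39. How strand and multiple matches were handled is not stated there. All 109 members lay on their RefSeq chromosome of GRCm38.p6, and 76 had the same start or end base, so positions are given as GRCm38.

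Isoform FPKM were summed per symbol and not rescaled. Fragments were recovered by reading the upper bound less the FPKM as 2 standard errors, and depth by a Theil-Sen slope over length in genes of 1 isoform above 800 bases. Intervals are Poisson.

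The members and lists were chosen with earlier results of these data known. Genes named are members at 10 FPKM or more, the 3 highest of each class, class members listed at 0, members called between files, and the partner lists, of which some genes are not reported here. Further members are named for their family or role, and were chosen after their values were seen. Copies were sought with BLAST+ 2.17.0 in GENCODE M21 transcripts. Fits used SciPy 1.17.1 and pandas 2.3.3 under Python 3.11.15.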

Additional observations from a re-analysis of the deposited data

How the results depend on the processing

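The counts of members and of colonic, brush border, muscle and kidney carriers stayed within 1.5 times of the reported value with the threshold halved or doubled, with the highest isoform, in TPM and without any 1 replicate. The exceptions were 2 neural carriers in place of 6 at the doubled threshold, and 32 members in place of 51 where the lower confidence bound of the leading isoform had to reach 1 FPKM. TPM multiplies every level of a file by the same factor, so a level in TPM differs in its unit. The median of the members became 2.85 in TPM and 2.14 FPKM over members above 0 in at least 1 file. The matching median over all genes above 0 was not computed, so 2.14 FPKM cannot be set beside the 1.25 FPKM of all genes. The share of the other carriers (Slc5a5, Slc5a6, Slc5a7 and Slc43a3) was 1.58% by the highest isoform. Of 37 named levels, all 29 above 0 moved by more than 1 SD in TPM through that factor, and the 8 listed at 0 could not move. By the highest isoform 3 moved, to 0.229 FPKM in Slc7a2, 11.5 FPKM in Slc38a10 and 13.5 FPKM in Slc38a1. Levels of members outside these 37 were not checked in this way. Among them is Slc5a6, with a gene mean of 9.39 FPKM, whose leading isoform held 7.61, 5.71 and 8.68 FPKM in replicates 1, 2 and 3. No member differed between files under any alternative. Leaving out the symbols that are not carriers, an alternative chosen after seeing the data, left 49 members at 1 FPKM or more in every file. No paired analysis was possible because all samples are in 1 group. Levels under about 1 FPKM rest on few fragments, replicate 3 has the least depth, and differences between animals cannot be read from these files.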
